A study of Homo sapiens with 16 samples.

Results

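Aminoacyl-tRNA synthetases are the enzymes that join each amino acid to its matching tRNA, the step that gives the genetic code its meaning. Human cells keep one set of these enzymes in the cytosol and a second set, encoded by other nuclear genes, inside mitochondria. Several of the cytosolic enzymes sit in one large assembly, the multisynthetase complex, which is held together by the scaffold proteins AIMP1 and AIMP2. The genes were chosen by name and annotated type: protein-coding rows whose symbol is that of a synthetase or of AIMP1 or AIMP2. This gave 38 of the 16324 genes listed: 20 cytosolic enzymes, 16 mitochondrial enzymes and 2 scaffold proteins. The genes GARS1 (glycine) and KARS1 (lysine) make both forms of their enzyme and were counted as cytosolic. The name rule has no letter for phenylalanine in its mitochondrial form, so FARS2 is outside the group. It also misses TARS3, a further threonine enzyme of the cytosol, and both are given only beside the group.

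The mRNAs were measured by RIP-seq, in which a tagged protein is pulled out of a cell lysate and the RNA that comes with it is sequenced. The baits were Strep-ALKBH5, an enzyme that erases the m6A methyl mark on RNA, and Strep-RBM33, an RNA-binding protein. A tag-only construct, Strep-Vec-1, served as control. The 16 libraries fall into 6 groups: pull-down and input with 3 libraries each for Strep-Vec-1, 3 each for Strep-ALKBH5 and 2 each for Strep-RBM33. All are from lentivirus-infected, puromycin-selected UM-SCC-1, a head and neck squamous carcinoma line, and pull-downs used StrepTactin-XT; the labels do not say whether a stable line was 1 clone.

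All values below were read from the authors' deposited tables, 1 per bait, and no value per library was used. Neither table names the groups it compares, the direction of its ratio or the place of the vector libraries, so values are called positive or negative and not enriched or depleted. Both tables carry siCtrl in their names, a treatment that no library title mentions. Without values per library there is no standard deviation, depth or replicate count to set beside a value, and the adjusted p-value of each gene is the authors' own. Nothing in the labels says that replicates were separate cultures, so these p-values may cover technical spread only. Of 12 squamous epithelial markers looked up, 3 were listed (DSC3, ITGA6 and CDH1), and KRT5, KRT14 and TP63 were not among the listed genes. Of 5 genes typical of embryonic kidney lines 4 were listed, and INA was not. NEFL stood at an average log2 CPM of 8.10 in the authors' deposited ALKBH5 table and 7.42 in that for RBM33. In the same order NEFM had 7.72 and 7.18, LIN28B 5.78 and 6.39, and PAX2 1.83 and 1.85. Of the squamous markers DSC3 had 5.05 and 5.46, ITGA6 3.89 and 3.86, and CDH1 0.60 and 0.33, in the authors' deposited tables. Of 4 fibroblast markers 2 were listed, and of 3 leukocyte markers 0. What this says about the cells was not tested. The bait genes themselves stood at 1.28 for ALKBH5 in its own table and 3.41 for RBM33 in its own, log2 fold changes of the authors' deposited tables that can hold construct reads. RBM33 was also positive in the authors' deposited ALKBH5 table, at 1.17 (adjusted p = 7.1e-06). ALKBH5 had -0.21 in the authors' deposited RBM33 table and was not called (adjusted p = 0.245).

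The sequences around the starts of these genes are shown first, because part of the cytosolic set shares an element there. Many cytosolic synthetase genes are known targets of ATF4, the transcription factor of the amino acid response, which binds a composite element with the core TGATGCAA. Start-site windows from RefSeq (GRCh38.p14, 250 bases before to 50 bases from the start) were found for 31 of the 38 genes. AARS2, LARS1, VARS1, VARS2 and YARS1 were among those without one. Searching both strands, 6 of 31 genes (19.4%) held TGATGCAA, against 1.08% of all 27305 genes with windows. All 6 were among the 16 cytosolic enzymes with a window, and none of the 13 mitochondrial enzymes or the 2 scaffolds held it. A match is a description of the letters and not a shown binding site. With the looser TGATGNAA, which includes every TGATGCAA, the count was 8 of 31 (GARS1 and YARS2 were added) against 4.46% of genes. The stretches around the matches follow, 5′ to 3′ on the strand of the gene, with the match or its reverse complement in capitals.
AARS1 (chr16:70289664-70289715, minus strand): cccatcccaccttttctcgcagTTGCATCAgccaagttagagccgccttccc
CARS1 (chr11:3057396-3057447, minus strand): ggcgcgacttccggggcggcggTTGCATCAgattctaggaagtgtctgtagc
IARS1 (chr9:92293681-92293732, minus strand): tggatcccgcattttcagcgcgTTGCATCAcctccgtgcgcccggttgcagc
MARS1 (chr12:57488042-57488093, plus strand): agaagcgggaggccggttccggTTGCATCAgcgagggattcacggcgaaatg
NARS1 (chr18:57621807-57621844, minus strand): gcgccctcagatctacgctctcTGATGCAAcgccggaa
TARS1 (chr5:33440945-33440994, plus strand): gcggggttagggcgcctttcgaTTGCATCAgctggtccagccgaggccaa

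In AARS1 the match begins 187 bases before the RefSeq start of its window. It begins 13, 4 and 2 bases before the start in IARS1, MARS1 and CARS1. In TARS1 and NARS1 it begins 2 and 14 bases past the start. These starts differ from the ends of the listed gene spans, and all 6 matches lie inside those spans. The listed AARS1 span, for example, runs to 70289707. The 31 genes had 42 windows. The 6 genes did not share one value: in the authors' deposited ALKBH5 table, TARS1 (-1.07), NARS1 (-0.88) and CARS1 (-0.34) were called negative, and MARS1 (-0.09), IARS1 (-0.17) and AARS1 (0.17) were not called. The median of the 6 was -0.25 in the authors' deposited ALKBH5 table, beside -0.62 for the other 10 cytosolic enzymes with a window. For RBM33 these medians were -0.39 and -0.79 per the authors' deposited table. With the looser TGATGNAA, 7 cytosolic enzymes had a match and 9 did not. Their medians were -0.34 and -0.61 for ALKBH5 and -0.54 and -0.74 for RBM33 per the authors' deposited tables. These differences were not tested.

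Another pair is shown for its position. HARS1 and HARS2, the cytosolic and mitochondrial histidine enzymes, lie head to head on chromosome 5 (140673035 to 140691537 and 140691430 to 140699305), and their listed spans share 108 bases. The RefSeq starts used here leave 84 bases between them, printed on the plus strand and running from the HARS1 start to the HARS2 start.
HARS1 to HARS2 (chr5:140691371-140691454, plus strand): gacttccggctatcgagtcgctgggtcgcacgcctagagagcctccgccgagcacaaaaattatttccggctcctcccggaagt

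Although they start from this one stretch, the genes had unlike values. HARS1 was called positive in each of the authors' deposited tables, at 0.51 in the ALKBH5 one (adjusted p = 0.00464) and 0.82 in the RBM33 one (adjusted p = 0.00134). HARS2 was not called in either of the authors' deposited tables (0.02 and -0.05, adjusted p = 0.920 and 0.859). The listed length is 14155 bases for HARS1 and 3719 for HARS2. The enzymes are close paralogs, so reads from near-identical exons could be split between them. HARS2 also shares 626 bases on its strand with ZMAT2, which had -1.71 and -1.93 in the authors' deposited tables. ZMAT2 was the more abundant there, with an average log2 CPM of 6.78 and 6.89 beside 4.68 and 4.55 for HARS2. HARS1 overlaps WDR55 on the other strand by 1090 bases.

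Taken as a group, the mRNAs of the protein-charging machinery had more negative than positive calls, most of the negative ones among the cytosolic enzymes. A gene was counted as called at an adjusted p under 0.05 in the authors' own test, over all 16324 genes. Per the authors' deposited ALKBH5 table, 8 of the 38 were positive and 19 negative (21.1% and 50%). The shares over all genes there were 30.5% positive and 29.1% negative, and over the 13210 protein-coding genes 27.5% and 33.3%. In the authors' deposited RBM33 table, 4 of the 38 were positive and 19 negative, where all genes had 24.0% and 27.0% and protein-coding genes 21.5% and 31.2%. The median log2 fold change of the 38 was -0.29 for ALKBH5 and -0.64 for RBM33 per the authors' deposited tables, against -0.08 and -0.13 for protein-coding genes. Relative to protein-coding genes of the same abundance bin (10 equal bins), the median of the 38 was 0.15 and 0.09. There 23 and 20 genes lay above the bin median and 15 and 18 below. Relative to bins of listed length, the median was -0.22 and -0.34, computed from the authors' deposited tables. Most values were modest: the range ran from -1.52 to 1.40 for ALKBH5 and from -1.56 to 1.26 for RBM33 per the authors' deposited tables. It is not stated whether both tables share libraries, so their values are set side by side and no agreement between them is drawn.

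**Figure D1:**
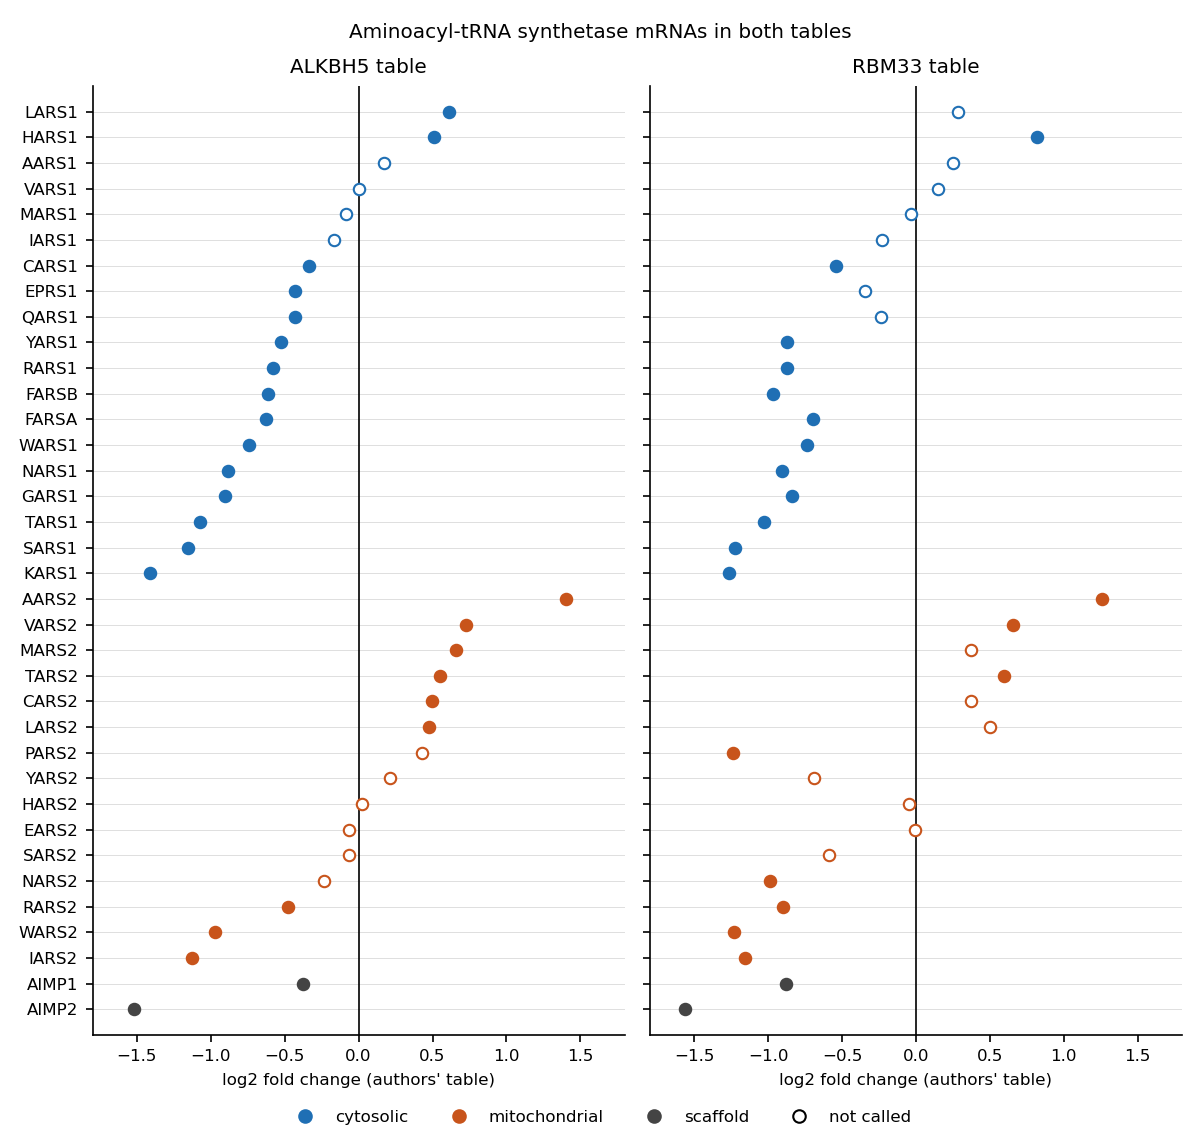
The log2 fold change of 36 of the 38 genes in the authors' deposited tables, ALKBH5 on the left and RBM33 on the right, ordered within each class by the ALKBH5 value; filled points passed an adjusted p under 0.05 and open points did not. Cytosolic enzymes (blue) lie mostly left of 0, with 14 of 20 called negative for ALKBH5 and 12 of 20 for RBM33, and mitochondrial enzymes (orange) spread to both sides.

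The lowest single value belonged to the multisynthetase complex, while its enzymes as a set were less negative than other cytosolic enzymes. The 8 enzymes of the complex had medians of -0.43 (ALKBH5) and -0.29 (RBM33) from the authors' deposited tables, and the 12 others -0.62 and -0.79, without a test of that difference. Relative to protein-coding genes of the same abundance bin, the 8 had medians of 0.18 and 0.33. The 12 others had 0.16 and 0.049, computed from the authors' deposited tables, so the ALKBH5 medians were then nearly equal. AIMP2, a scaffold that ties the complex together (chromosome 7, 6009255 to 6023834, hg38), was the lowest of the 38 in each of the authors' deposited tables, at -1.52 in the ALKBH5 one (adjusted p = 3.54e-06) and -1.56 in the RBM33 one (adjusted p = 1.59e-05). It also has the shortest listed length, 1828 bases. KARS1, the lysine enzyme (chromosome 16, 75627474 to 75648643), stood at -1.41 (adjusted p = 3.2e-06) and -1.26 (adjusted p = 6.32e-05) in the authors' deposited tables. The values of AIMP2 and KARS1 correspond to ratios of 2.65 to 2.86 for ALKBH5 and 2.40 to 2.95 for RBM33 per the authors' deposited tables.

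Other enzymes of the same complex lay closer to 0. In the authors' deposited tables for ALKBH5 and RBM33, in that order, IARS1 (isoleucine) had -0.17 and -0.23 and MARS1 (methionine) -0.09 and -0.04, none of them called. EPRS1, which joins both glutamate and proline, had -0.43 and -0.34, and QARS1 (glutamine) -0.43 and -0.24, each called negative for ALKBH5 only in the authors' deposited tables. LARS1, the leucine enzyme that also senses leucine for mTORC1, was the complex's positive member in the authors' deposited tables, at 0.61 for ALKBH5 (adjusted p = 0.00264) and 0.29 for RBM33, where it was not called. RARS1 (arginine) was negative in each of the authors' deposited tables (-0.58 and -0.87), as was the scaffold AIMP1 (-0.38 and -0.88), which is also cut into a secreted cytokine. Of the 10 listed members of the complex, 7 were negative and 1 positive for ALKBH5 and 5 and 0 for RBM33 per the authors' deposited tables. Protein-coding genes had 33.3% and 31.2% negative in the authors' deposited tables. For those at least as abundant as the least abundant cytosolic enzyme the shares were 57.9% and 55.8%. EEF1E1, its other scaffold (AIMP3), has a symbol outside the naming rule and stood at -0.99 and -1.39, called negative in each of the authors' deposited tables.

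Cytosolic enzymes outside the complex leaned the same way. Of these 12, 9 were negative and 1 positive in each of the authors' deposited tables. Protein-coding genes had 33.3% (ALKBH5) and 31.2% (RBM33) negative there. Of those at least as abundant as the least abundant cytosolic enzyme, 57.9% and 55.8% were negative in the authors' deposited tables. Relative to protein-coding genes of the same abundance bin (10 equal bins), the median of the 12 was 0.16 and 0.049, computed from the authors' deposited tables. SARS1 (serine) stood at -1.15 (ALKBH5, adjusted p = 1.33e-05) and -1.22 (RBM33, adjusted p = 8.41e-05), and TARS1 (threonine) at -1.07 and -1.03, in the authors' deposited tables. GARS1 had -0.90 and -0.84, NARS1 (asparagine) -0.88 and -0.91, and WARS1 (tryptophan), an enzyme induced by interferon, -0.74 and -0.74, all called negative in the authors' deposited tables. The phenylalanine enzyme is built from a pair of different chains, and both mRNAs were negative in the authors' deposited tables: FARSA at -0.63 and -0.70, FARSB at -0.61 and -0.97. YARS1 (tyrosine) with -0.53 and -0.87 and CARS1 (cysteine) with -0.34 and -0.54 were also called negative in each of the authors' deposited tables. AARS1 (alanine, 0.17 and 0.25) and VARS1 (valine, 0.00024 and 0.15) were not called in either of the authors' deposited tables. HARS1, described above, was the positive member.

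The highest value of the group belonged to a mitochondrial enzyme. AARS2, the mitochondrial alanine enzyme (chromosome 6, 44298731 to 44313347), was the highest of the 38 in each of the authors' deposited tables, at 1.40 in the ALKBH5 one (adjusted p = 5.09e-06) and 1.26 in the RBM33 one (adjusted p = 0.000264). It stood above 89.5% of protein-coding genes for ALKBH5 and 88.8% for RBM33 per the authors' deposited tables. VARS2 (valine) had 0.73 (adjusted p = 0.000674) and 0.65 (adjusted p = 0.0182) in the authors' deposited tables. A listed noncoding gene, AL669830.1, covers 12255 bases of VARS2 on the same strand and had nearly the same values (0.72 and 0.59) in the authors' deposited tables, so their reads may not be separable. TARS2 (threonine) had 0.55 (adjusted p = 0.0066) and 0.60 (adjusted p = 0.0116) in the authors' deposited tables.

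MARS2, CARS2 and LARS2, for methionine, cysteine and leucine, were called positive for ALKBH5 only in the authors' deposited tables. MARS2 had 0.66 (adjusted p = 0.026) and 0.37, CARS2 0.49 and 0.37, and LARS2 0.47 and 0.50 (adjusted p = 0.0998 for RBM33), in the authors' deposited tables. Whether the baits differ on these genes was not tested, since there are no values per library.

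At the opposite end, 3 of 16 mitochondrial enzymes were called negative for ALKBH5 and 5 of 16 for RBM33 per the authors' deposited tables. Protein-coding genes had 33.3% and 31.2% negative there. IARS2 (isoleucine) stood at -1.13 (adjusted p = 2.4e-06) and -1.16, and WARS2 (tryptophan) at -0.97 and -1.23 (adjusted p = 0.000404), in the authors' deposited tables. RARS2 (arginine) was negative too, at -0.47 and -0.90, and NARS2 (asparagine) had -0.23, not called, and -0.99, called, in the authors' deposited tables. PARS2, the proline enzyme, changed sign between the authors' deposited tables, from 0.43 (adjusted p = 0.27) for ALKBH5 to -1.24 (adjusted p = 0.0148) for RBM33. It is also the least abundant of the 38 in each of the authors' deposited tables, with an average log2 CPM of 2.98 and 2.60. Not called in either of the authors' deposited tables were EARS2 (-0.06 and -0.0080), SARS2 (-0.07 and -0.59), YARS2 (0.21 and -0.69) and HARS2, for glutamate, serine, tyrosine and histidine. SARS2 shares 15360 bases on its strand with AC011455.2, whose values were 0.0043 and -0.46 in the authors' deposited tables.

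Compared as classes, the cytosolic enzymes had the lower median in each of the authors' deposited tables, -0.55 against 0.12 for ALKBH5 and -0.72 against -0.03 for RBM33. The differences in medians were -0.68 and -0.69 from the authors' deposited tables. Negative calls numbered 14 of 20 cytosolic and 3 of 16 mitochondrial enzymes for ALKBH5, and 12 of 20 and 5 of 16 for RBM33, in the authors' deposited tables. Positive calls numbered 2 and 6 for ALKBH5 and 1 and 3 for RBM33 per the authors' deposited tables. As background, the authors' deposited ALKBH5 table called 33.3% of protein-coding genes negative and 27.5% positive. The authors' deposited RBM33 table called 31.2% of them negative and 21.5% positive. Mitochondrial enzymes, at 31.25% negative and 18.75% positive in the latter of the authors' deposited tables, were near that background. The ranges overlap widely, genes are not replicates, and no test of the difference was possible from these tables. FARS2, outside the naming rule, had 0.32 and 0.15 and was not called in either of the authors' deposited tables.

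Abundance moved with this split. The cytosolic mRNAs had a median average log2 CPM of 7.51 for ALKBH5 and 7.62 for RBM33, and the mitochondrial ones 4.96 and 4.84, in the authors' deposited tables. Per kilobase of listed length the gap between the class medians was 2.25 and 2.31 log2 units of level, computed from the authors' deposited tables. Abundant protein-coding genes were negative more often in general: of the 3111 at least as abundant as the least abundant cytosolic enzyme, 57.9% were called negative in the authors' deposited ALKBH5 table, with a median of -0.53. By the authors' deposited RBM33 table the same share was 55.8% of 3616 genes, and their median was -0.58. Against that background the cytosolic shares of 70.0% and 60.0%, and medians of -0.55 and -0.72, stand close by. After subtracting the median of protein-coding genes in the same abundance bin (10 equal bins), the class difference computed from the authors' deposited tables was -0.018 for ALKBH5 and -0.058 for RBM33. The part of abundance in the class difference was not tested further.

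**Figure D2:**
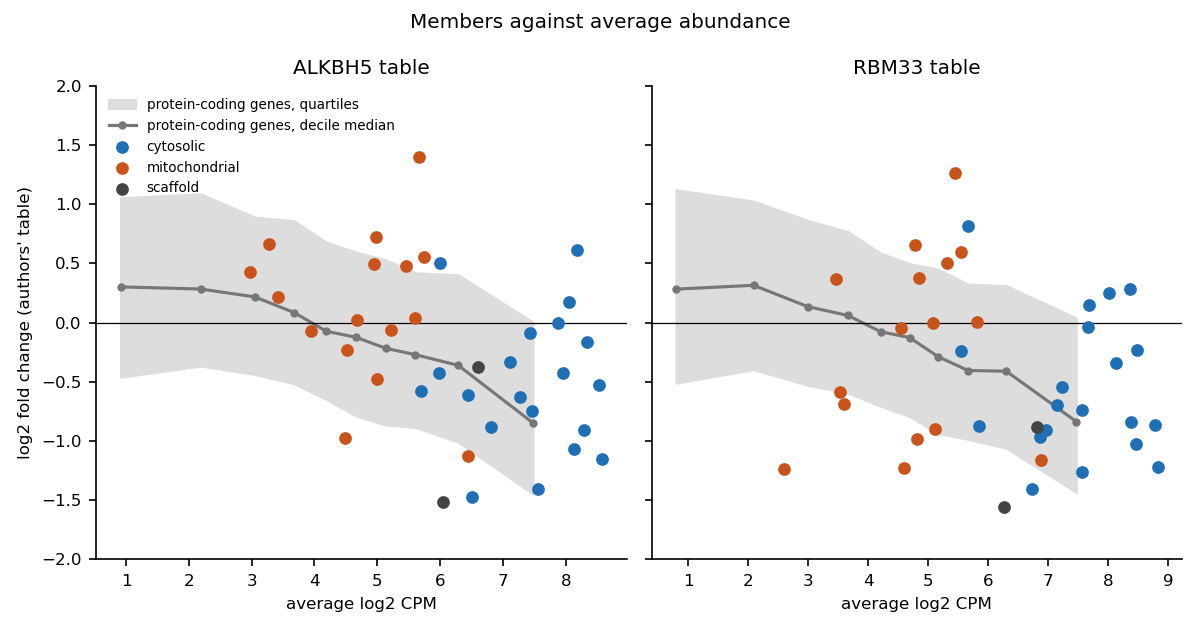
The log2 fold change of the 38 genes against average log2 CPM in the authors' deposited tables; the grey line joins the medians of 10 equal bins of protein-coding genes by abundance and the band spans their quartiles. The line goes from 0.30 in the least to -0.85 in the most abundant bin for ALKBH5 and from 0.28 to -0.84 for RBM33, and the cytosolic enzymes (blue) lie to the right of most mitochondrial ones (orange).

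Enzymes that charge the same amino acid can be compared directly, and 14 amino acids have their own cytosolic and mitochondrial member among the 38. Glutamate and proline were left out of these pairs because EPRS1 serves both in the cytosol. EPRS1 had -0.43 and -0.34, EARS2 -0.06 and -0.0080, and PARS2 0.43 and -1.24 in the authors' deposited tables. The mitochondrial mRNA had the higher value in 10 of 14 pairs for ALKBH5 and 9 of 14 for RBM33 per the authors' deposited tables. The median of mitochondrial minus cytosolic was 0.73 and 0.31 log2 units of fold change in the authors' deposited tables. Threonine showed the widest gap, 1.62 in each of the authors' deposited tables, and is the pair called in opposite directions in both: TARS1 was negative (adjusted p = 1.32e-05 and 0.000219) and TARS2 positive. TARS3 stood between TARS1 and TARS2 in the authors' deposited tables, at -0.18 (ALKBH5) and -0.46 (RBM33), and was not called. Cysteine was split the same way in the authors' deposited ALKBH5 table, with CARS1 negative (adjusted p = 0.044) and CARS2 positive (adjusted p = 0.0214). Alanine and serine had gaps of 1.23 and 1.08 for ALKBH5 and 1.01 and 0.64 for RBM33 per the authors' deposited tables.

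Isoleucine ran the other way. For IARS2 minus IARS1 the authors' deposited tables gave -0.96 (ALKBH5) and -0.93 (RBM33). For HARS2 minus HARS1 they gave -0.49 and -0.87. Tryptophan enzymes were negative in both compartments, and WARS2 minus WARS1 was -0.23 and -0.50 in the authors' deposited tables. The cytosolic mRNA was the more abundant in all 14 pairs in each of the authors' deposited tables.

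**Figure D3:**
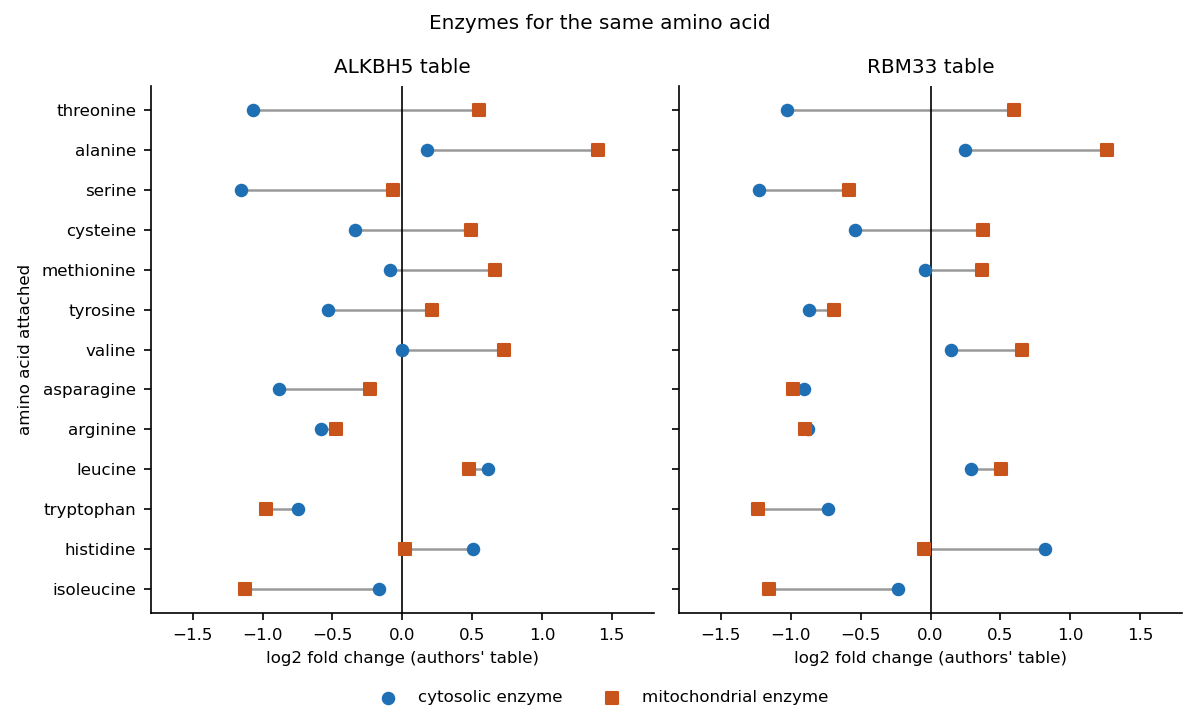
Log2 fold changes of the cytosolic (circle) and mitochondrial (square) enzyme for 13 of the 14 pairs in the authors' deposited tables, ordered by the ALKBH5 gap. Threonine spans from -1.07 to 0.55 for ALKBH5 and from -1.03 to 0.60 for RBM33, and isoleucine and histidine have the square on the left.

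The gene length listed in the tables, whose definition they do not give, also moved with the values. Across the 20 cytosolic enzymes its Spearman correlation with log2 fold change was 0.61 for ALKBH5 and 0.60 for RBM33 per the authors' deposited tables. Across the 16 mitochondrial ones it was 0.24 and 0.59, and across all protein-coding genes 0.41 and 0.45. These are descriptions over genes that share libraries. Of 7 genes listed at 10000 bases or more, 4 were positive (LARS1, HARS1, LARS2 and CARS2) and 2 negative (GARS1 and CARS1) for ALKBH5 per the authors' deposited table. HARS1 was the positive one of these 7 for RBM33, with the same 2 negative, in the authors' deposited table.

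The median listed length was 6118 bases for the cytosolic and 3954 for the mitochondrial enzymes. After subtracting the median of the length bin (10 equal bins of protein-coding genes), the cytosolic minus mitochondrial difference was -0.79 for ALKBH5 and -0.46 for RBM33, computed from the authors' deposited tables. The part of length in the class difference was not tested further. Set against protein-coding genes in the same bin of listed length, all 20 cytosolic enzymes lay below the median for ALKBH5 and 18 of 20 for RBM33 per the authors' deposited tables. Mitochondrial enzymes lay above it in 10 of 16 cases for ALKBH5 and 5 of 16 for RBM33 per the authors' deposited tables. GARS1 was farthest below its length bin, by -1.60 and -1.54, and AARS2 farthest above, by 1.36 and 1.31, in the authors' deposited tables. Set against genes of the same abundance bin instead, 9 of 20 cytosolic enzymes lay below the median in each of the authors' deposited tables, and 4 of 16 and 7 of 16 mitochondrial ones.

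**Figure D4:**
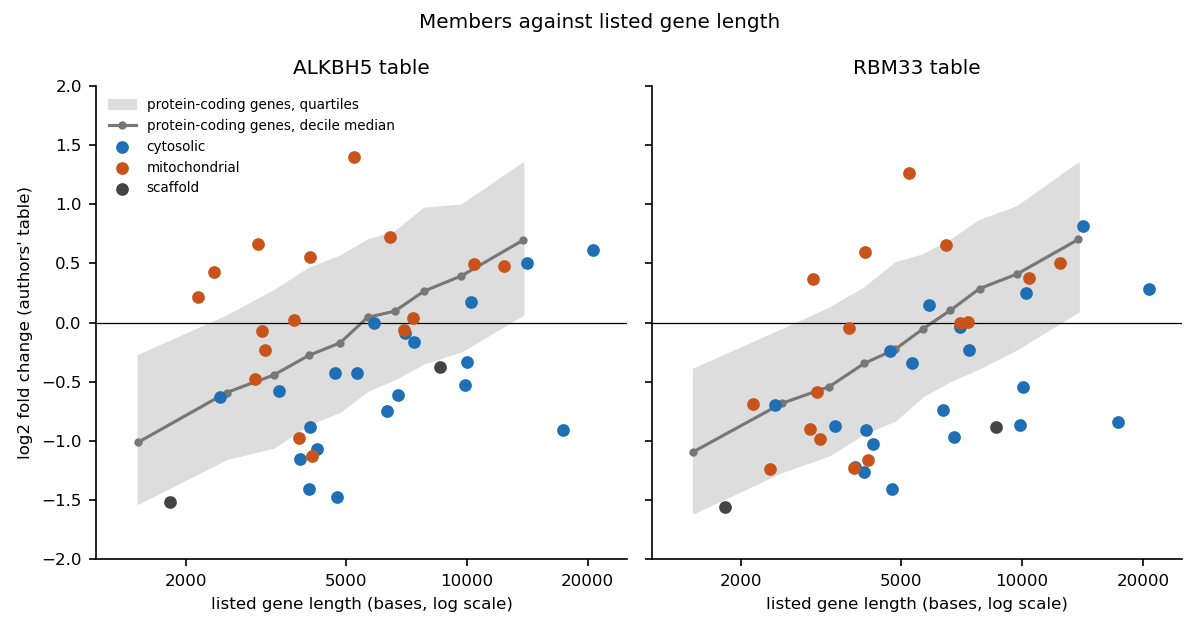
The log2 fold change of the 38 genes against listed gene length on a log axis, from the authors' deposited tables; the grey line and band are the medians and quartiles of 10 equal bins of protein-coding genes by length. All 20 blue points lie below their bin's median for ALKBH5, and AARS2, listed at 5242 bases, is the highest point in each panel.

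The catalytic classes, which differ in the fold of the active site, were described in the same way. Among cytosolic enzymes, 5 of 9 of class I and 8 of 10 of class II were negative for ALKBH5 per the authors' deposited table (EPRS1 holds both folds and is left out), with medians of -0.34 and -0.89. For RBM33 the counts were 4 of 9 and 8 of 10, with medians of -0.24 and -0.94, in the authors' deposited table. Protein-coding genes had 33.3% (ALKBH5) and 31.2% (RBM33) negative in the authors' deposited tables. For those at least as abundant as the least abundant cytosolic enzyme the shares were 57.9% and 55.8%. The median listed length was 7028 bases for class I and 4505 for class II. Relative to the abundance bin, the class I and II medians were 0.51 and -0.14 for ALKBH5 and 0.30 and -0.10 for RBM33. Relative to joint bins of length and abundance they were 0.18 and -0.07, and -0.04 and -0.09, computed from the authors' deposited tables. The part of length and abundance in this was not tested. Among mitochondrial enzymes the authors' deposited ALKBH5 table had 3 of 9 of class I and 0 of 7 of class II negative, with medians of 0.21 and 0.04. The authors' deposited RBM33 table had 3 of 9 and 2 of 7 negative, with medians of -0.0080 and -0.05.

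Neighbouring transcripts were listed for many of these genes, and 18 of 38 overlap another listed gene. At GARS1 and WARS2 a noncoding gene overlaps the 5′ end head to head, and there the synthetase was negative and the noncoding partner positive. GARS1-DT stood at 2.69 (adjusted p = 1.5e-06) and 2.49, beside -0.90 and -0.84 for GARS1, in the authors' deposited tables. WARS2-AS1 stood at 1.73 (adjusted p = 3.98e-07) and 1.51, beside -0.97 and -1.23 for WARS2, in the authors' deposited tables. Of all 1671 listed lncRNA genes, 47.9% were called positive for ALKBH5 and 35.8% for RBM33 per the authors' deposited tables, so a positive value was common for this gene type. The kit keeps strand information but the sources used here do not give the strand setting of the counting, so reads in the shared bases may be mixed.

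Coding neighbours were less uniform. TERF2IP, a telomere protein gene head to head with KARS1, was negative with it (-1.09 and -0.85) in the authors' deposited tables. DDX19B, beside AARS1, was negative at -1.66 and -1.37 while AARS1 was not called, in the authors' deposited tables. TBCK, head to head with the negative AIMP1, was positive at 1.25 and 1.08 in the authors' deposited tables. S100PBP, beside the negative YARS1, had 0.78, called positive, and 0.41, not called, in the authors' deposited tables. Thus a positive partner beside a negative member was also seen among coding neighbours. DDIT3, which encodes the stress factor CHOP and overlaps the 3′ end of MARS1, had -1.39 and -0.998 in the authors' deposited tables, and MARS1 was near 0. EPRS1 and IARS2 are 47601 bases apart on chromosome 1, on opposite strands, and had -0.43 and -1.13 for ALKBH5 per the authors' deposited table.

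**Figure D5:**
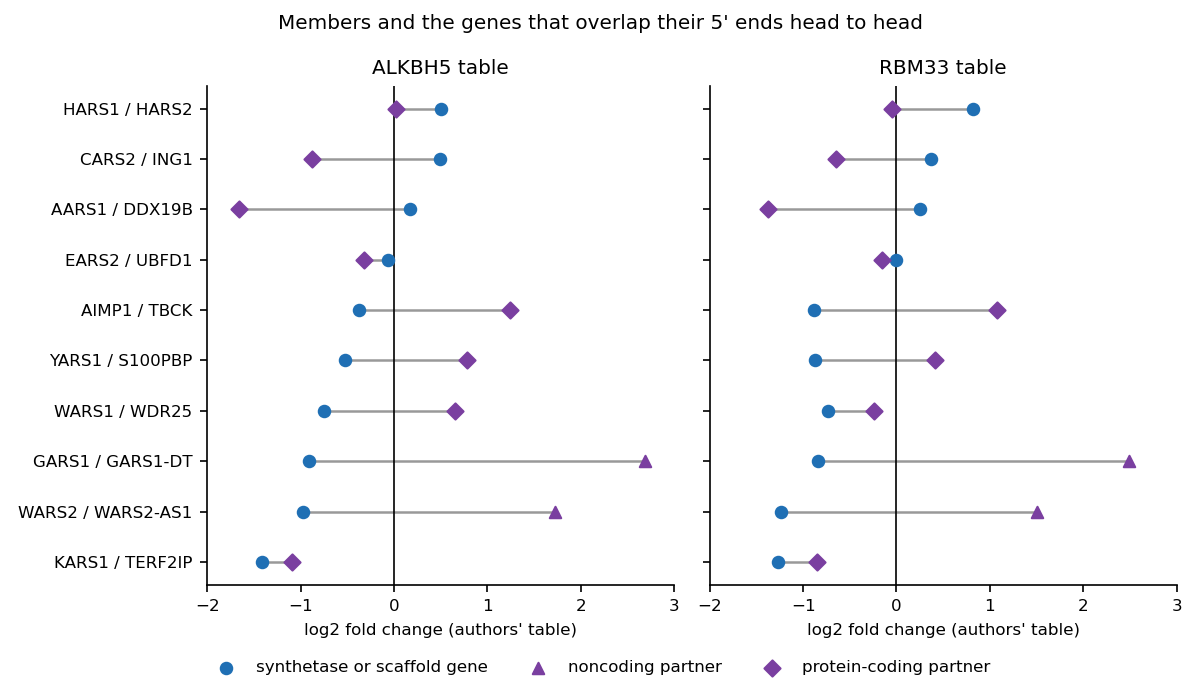
Log2 fold changes of synthetase and scaffold genes (circles) and of the listed genes that overlap their 5′ ends head to head (triangles noncoding, diamonds protein-coding), from the authors' deposited tables. The noncoding partners drawn lie between 1.73 and 2.69 for ALKBH5 and between 1.51 and 2.49 for RBM33, right of 0, and their synthetases lie left of it.

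Other parts of the tRNA pathway were counted for context. Further factors of aminoacylation and tRNA supply had 1 positive and 11 negative of 20 for ALKBH5 and 0 and 11 for RBM33 per the authors' deposited tables (medians -0.40 and -0.50). DTD1, which removes D-amino acids from tRNA, was lowest there, at -2.41 (adjusted p = 1.93e-08) and -2.10 in the authors' deposited tables. TRNT1, which adds the CCA end on which amino acids are loaded, had 0.78 (adjusted p = 0.0215) and 0.42, and XPOT, the tRNA export receptor, had -0.38 and -0.73, in the authors' deposited tables. Mitochondrial translation factors had 1 positive and 7 negative of 11 for ALKBH5 and 0 and 7 for RBM33 per the authors' deposited tables (medians -0.69 and -1.19). Their negative share of 63.6% stands beside 18.8% (ALKBH5) and 31.3% (RBM33) of the mitochondrial synthetases, without a test of that difference. Protein-coding genes had 33.3% and 31.2% negative in the authors' deposited tables, so the RBM33 share of the mitochondrial synthetases was near that. The abundance of these lists was not compared. MRPL58, a ribosome rescue factor, had -1.73 and -1.61 and MTIF3, an initiation factor, -1.42 and -1.41 in the authors' deposited tables.

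Enzymes that modify tRNA had 10 positive and 10 negative of 33 for ALKBH5 and 9 and 9 for RBM33 per the authors' deposited tables. Those shares, 30.3% each way for ALKBH5 and 27.3% for RBM33, lie near the protein-coding shares given above (27.5% and 33.3%, 21.5% and 31.2%). ADAT2 and ADAT3, the subunits of the deaminase that makes inosine at the wobble base, were the highest at 1.55 and 1.29 for ALKBH5 and 1.55 and 1.598 for RBM33 per the authors' deposited tables. TRMT10C, a subunit of mitochondrial RNase P, was low at -1.53 and -1.08 in the authors' deposited tables. Genes of the ATF4 amino acid response, the program that also induces cytosolic synthetases, had 1 positive and 12 negative of 22 for ALKBH5 and 1 and 14 for RBM33 per the authors' deposited tables. PSPH, which completes serine synthesis, had -1.53 and -1.76, and SLC7A1, a carrier of cationic amino acids, 0.36 and 0.40, in the authors' deposited tables.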

How the data were processed

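RIP-seq of UM-SCC-1 gave 16 libraries in 6 groups, named by sample title. The submitters' processing notes name edgeR 3.24.3, Subread 1.6.4 with featureCounts, HISAT2 2.1.0, cutadapt 1.18 and build hg38. Annotation release, low-count filter and strand setting: not given in the sources used here. The deposited tables, by their headers, give the authors' values: a p-value and its adjusted value, an F statistic (a score), a mean log2 CPM and a log2 fold change for each of 16324 genes, with listed length, position and type. No value per library was used, so depth is unknown.

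Python 3.11.15 and pandas 2.3.3 selected the genes, counted calls at the authors' adjusted p under 0.05, and took medians over all genes tested and over 10 bins of length or abundance; the script was checked on simulated data. The rule named every gene of the group, with adjusted p at least for the 5 lowest and 5 highest and for pairs called in opposite directions; some of these are counted but not reported here. Genes of other lists were named by the highest and lowest calls; EEF1E1, GARS1-DT and other neighbours were named after values were seen. The genes and lists were chosen with earlier results of these data known. RefSeq start windows were matched by symbol. Alternatives are in the closing section.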

Additional observations from a re-analysis of the deposited data

How the results depend on the processing

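Requiring an absolute log2 fold change of at least 1 left 1 positive and 6 negative genes for ALKBH5 and 1 and 8 for RBM33 (16.5%, 17.8%, 13.3% and 18.8% of protein-coding genes). At an adjusted p under 0.01, 2 genes were positive for RBM33 (14.6% of protein-coding genes were). The cytosolic minus mitochondrial median was -0.018 (ALKBH5) and -0.058 (RBM33) relative to the abundance bin, and -0.21 and -0.047 relative to joint bins of length and abundance, an alternative added after seeing the data. Within pairs it was -0.31 for RBM33. The cause was not tested. The other 20 comparisons with an alternative, of 30, moved by less than 1.5 times with their sign. Leaving out replicates was not run. No paired analysis was possible because no values per library were used.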
